A study of Mus musculus with 20 samples.

Results

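Members of the MHC class I antigen presentation pathway, 10 genes, were followed across 20 melanoma tumours: the heavy chain genes H2-K1, H2-D1, H2-Q4, H2-Q6, H2-Q7 and H2-T23, the light chain gene B2m, the peptide transporter genes Tap1 and Tap2, and the regulator gene Nlrc5. They were chosen by symbol from the gene tables, which list 32285 genes, and all 10 members were found and passed the filter on low counts. The tumours were grown from B16F10, a melanoma cell line of C57BL/6 origin, in wild-type, immunocompetent C57BL/6 mice. The 4 groups of 5 tumours received control IgG, propafenone (added to the control antibody, as the design text reads), anti-PD-1, or propafenone together with anti-PD-1 (the combination). Propafenone is a sodium channel blocker used against cardiac arrhythmia, and anti-PD-1 antibodies block PD-1, a receptor that restrains T cells. Injections were intraperitoneal and started once tumours measured about 100 mm3, with collection on day 16. Age and sex of the mice are not given in the labels, nor whether any tumours shared a mouse, so p-values measure the spread between these tumours.

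Class I molecules are peptide receptors on the cell surface, made of a heavy chain, the light chain beta-2 microglobulin and a short peptide. Proteasomes cut proteins into peptides, the transporter formed by TAP1 and TAP2 pumps them into the endoplasmic reticulum, and loaded complexes travel to the surface, where CD8 T cells read them. In C57BL/6 mice H2-K1 and H2-D1 encode the classical chains, while H2-Q4, H2-Q6, H2-Q7 and H2-T23 encode nonclassical ones, H2-Q7 belonging to the Qa-2 family and H2-T23 encoding Qa-1. NLRC5 is the class I transactivator, which works at a shared promoter module, and interferon gamma raises the whole set. B16F10 cells are known for low class I expression in culture and for its induction by interferon.

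The promoters are shown because the heavy chain genes other than H2-T23 have similar stretches there, while edgeR called only H2-Q7. Differences between these genes were not tested. RefSeq promoter sequences of GRCm38.p6, from 250 bases before to 50 bases after the start site, were matched for 8 of the 10 members, Tap2 and Nlrc5 being the others. Each line runs 5′ to 3′ on the gene's strand, and capitals mark matches, searched on both strands, to GGGNNTTCC (a kappaB site), AANNGAAA (an interferon regulatory factor element), TGACG (the core of the X2 box) and CCAAT (the box bound by NF-Y). None of the printed matches overlaps another.
H2-K1: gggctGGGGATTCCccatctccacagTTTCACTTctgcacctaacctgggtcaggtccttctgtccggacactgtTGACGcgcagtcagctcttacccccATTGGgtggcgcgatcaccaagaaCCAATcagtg
H2-D1: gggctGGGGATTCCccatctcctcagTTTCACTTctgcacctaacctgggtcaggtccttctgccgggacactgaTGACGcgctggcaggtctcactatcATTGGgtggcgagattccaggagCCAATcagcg
H2-Q6: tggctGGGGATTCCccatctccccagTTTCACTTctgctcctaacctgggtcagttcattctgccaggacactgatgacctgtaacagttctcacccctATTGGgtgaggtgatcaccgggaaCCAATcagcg
H2-Q7: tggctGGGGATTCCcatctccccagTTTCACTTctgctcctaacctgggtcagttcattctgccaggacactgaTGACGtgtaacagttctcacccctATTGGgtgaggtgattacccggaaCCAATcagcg
B2m: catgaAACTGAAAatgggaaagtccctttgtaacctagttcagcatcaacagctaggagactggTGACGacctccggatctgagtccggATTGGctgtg
On GRCm38.p6 these stretches lie at chr17:34000330-34000463 (minus strand) for H2-K1, chr17:35262918-35263050 for H2-D1, chr17:35424672-35424804 for H2-Q6, chr17:35439017-35439148 for H2-Q7 and chr2:122147545-122147643 for B2m, the last 4 on the plus strand. The H2-K1 stretch runs past the start site by 18 bases. From the kappaB match to the interferon regulatory factor match the distance was 21 bases in H2-K1, H2-D1 and H2-Q6 and 20 bases in H2-Q7 and H2-Q4. The H2-Q6 and H2-Q7 stretches were 97.0% identical in a pairwise alignment, H2-K1 and H2-D1 87.3%, and the least alike pair of the 5 heavy chain genes compared 82.8%. The H2-T23 window held no kappaB or TGACG match and was not compared. TGACG was found in the window of H2-Q7 and not in that of H2-Q6. Among the 8 member windows 7 held the interferon regulatory factor element, 5 the kappaB site, 6 TGACG and 8 CCAAT. Among 32851 promoter windows of the same length the shares were 23.9%, 5.82%, 20.8% and 37.4%. The interferon gamma activated site TTCNNNGAA was in 0 of the 8 member windows and in 8.3% of all windows. A match is a string of letters and does not show that a factor was bound.

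In all, 8 members lie in the MHC on chromosome 17 in GRCm38, where the annotation gives all 10 as protein-coding genes. From the start of H2-K1 (chr17:33996017-34000347, minus strand) the order is Tap1 (chr17:34187553-34197225), Tap2 (chr17:34203527-34216321), H2-D1 (chr17:35262730-35267499), H2-Q4 (chr17:35379617-35385290), H2-Q6 (chr17:35424850-35430055), H2-Q7 (chr17:35439155-35443773) and H2-T23 (chr17:36029773-36032855, minus strand). B2m lies at chr2:122147686-122153083 and Nlrc5 at chr8:94434356-94527272. Heavy chain genes resemble each other, so reads can be assigned to the wrong paralog. Of all 50-base windows in their annotated transcripts, 31.8% in H2-Q6, 26.3% in H2-Q7, 21.7% in H2-Q4, 13.3% in H2-T23, 12.8% in H2-D1 and 9.63% in H2-K1 also occurred in another gene, against 0% in B2m and Nlrc5, 0.834% in Tap1 and 0.708% in Tap2. At 100 bases the shares were 10.8% in H2-Q6 and 12.0% in H2-Q7. Only protein-coding transcripts and those of genes with H2- symbols were searched, so windows shared with other transcripts were not counted. H2-Q6 shared 13.9% of its 50-base windows with H2-Q7, and H2-Q7 shared 14.0% with H2-Q10. The read length and the handling of reads that fit several genes are not given in the sources used here, so values of H2-Q6 and H2-Q7 are uncertain in how they divide between them and their paralogs.

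Library totals ran from 56 to 64.5 M expected counts (M, 1e6), and the 10 members took between 0.0577% and 0.231% of a library. Melanocyte lineage genes were high in every tumour, with Pmel at 2521 TPM or more and Dct at 4417 TPM or more, so the labelled tissue carried its markers. TPM, a transcript abundance per length scaled to a common total, is used to compare genes, while CPM, counts scaled to a common total after TMM scaling, gives the values behind the tests. A gene counts as called where edgeR gave an adjusted p under 0.05 (Benjamini-Hochberg, over 15875 genes). By that rule 0% of genes were called for propafenone against IgG, 0% for anti-PD-1 against IgG, 4.88% for the combination against IgG (2.24% higher, 2.63% lower), 0% for the combination against anti-PD-1, 3.88% for the combination against propafenone (1.67% higher, 2.21% lower) and 0% for the interaction. Where edgeR called 0 genes, 754 (propafenone), 1203 (anti-PD-1), 1552 (combination against anti-PD-1) and 482 (interaction) had an unadjusted p under 0.05. DESeq2 called 3, 21, 7 and 2 genes in these comparisons, and limma voom 0. The interaction takes the log2 effects of both single agents from that of the combination. The split of calls depends on scaling: for the combination against IgG it was 356 higher and 418 lower, 306 and 217 with DESeq2 size factors, and 368 and 112 with library totals. For the combination against propafenone it was 265 and 351, 231 and 207, and 258 and 89 in the same order.

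By TPM over all 20 tumours B2m stood highest, followed by H2-D1 at 413 ± 179 and H2-K1 at 341 ± 153 (mean ± SD, n = 20). H2-Q4 at 48.8 ± 19.4 and Tap1 came next with ranges that overlap, then H2-T23 and Tap2. H2-Q6 at 6.25 ± 4.37, H2-Q7 and Nlrc5 were lowest, and these 3 took places 8 to 10 in each group. The order of the other 7 was the same in each group except that Tap1 stood above H2-Q4 after propafenone. The plot of TPM by tumour shows each value on a log axis. Within a group the tumours of a gene differed by up to 9.90-fold from lowest to highest in CPM, for Tap1 after anti-PD-1.

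**Figure D1:**
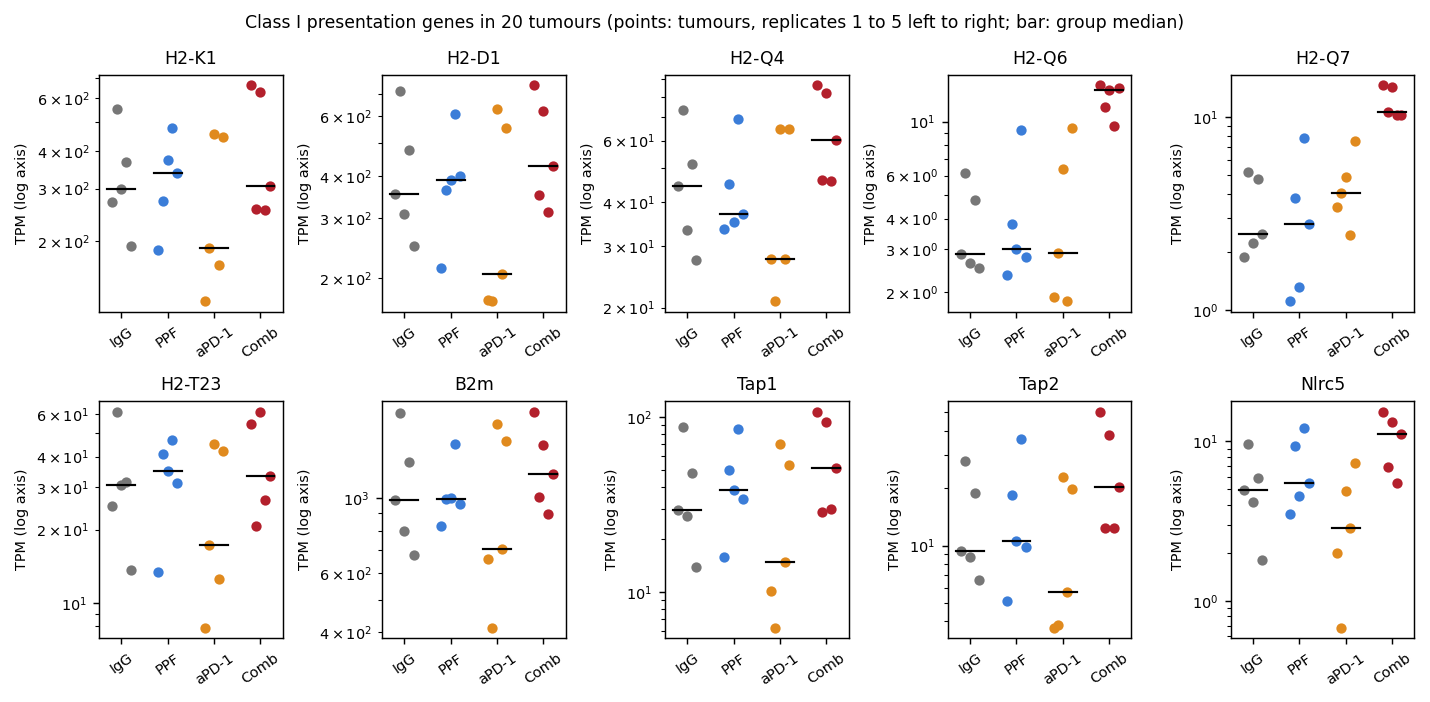
TPM (log axis) of the 10 class I genes in each tumour, with replicates 1 to 5 from left to right in each of the 4 groups and a bar at the group median (PPF, propafenone; aPD-1, anti-PD-1; Comb, combination). For H2-Q6 and H2-Q7 all 5 combination tumours lie above every tumour of the other groups in TPM, whereas for the other 8 genes the groups overlap. For H2-Q6 the margin is small (9.58 against 9.43 TPM), and in CPM 2 other tumours exceed the lowest combination tumour. In CPM 0.34% of all genes have the full separation, H2-Q7 among them, and the share in TPM was not counted.

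H2-Q7, a nonclassical heavy chain gene of the Qa-2 family, was the only member called, and it rose in the combination against IgG and against propafenone. In IgG tumours 1 to 5 it measured 2.29, 4.94, 2.09, 4.69 and 2.93 CPM. After propafenone it measured 1.13, 3.81, 1.58, 7.44 and 2.82 CPM, and after anti-PD-1 2.76, 5.65, 5.42, 2.58 and 8.45 CPM. In the combination it measured 13.8, 9.28, 14.6, 10.7 and 11.4 CPM, so all 5 combination tumours lay above all 15 others. A share of 0.34% of all genes had that pattern. The combination mean was 12.0 ± 2.21 CPM against 3.39 ± 1.34 in IgG tumours (SD, n = 5 each), a log2 fold change of 1.82 ± 0.422 (SE, edgeR adjusted p = 0.0256). Against propafenone the log2 fold change was 1.84 ± 0.422 (edgeR adjusted p = 0.0298). Against anti-PD-1 it was 1.27 ± 0.414 with no overlap between the groups, which 1.15% of all genes had in that direction (3.65% against propafenone), and the edgeR adjusted p was 0.446 (unadjusted 0.0062). The interaction stood at 1.28 with edgeR adjusted p = 0.99. The count is 1 of 10 members, beside 4.88% of all genes against IgG and 3.88% against propafenone, and says nothing of the members as a set. The call ended in fits without single tumours. Leaving out IgG tumour 1, 3 or 5 gave edgeR adjusted p = 0.059, 0.0818 and 0.0692, and leaving out combination tumour 1, 4 or 5 gave 0.0523, 0.0525 and 0.064. Against propafenone, leaving out propafenone tumour 1, 3 or 5 gave edgeR adjusted p = 0.0505, 0.121 and 0.0895, and leaving out combination tumour 1, 3, 4 or 5 gave 0.0607, 0.0649, 0.0617 and 0.0631. The log2 fold change stayed between 1.69 and 1.999 against IgG, and between 1.62 and 2.36 against propafenone, over the fits without 1 tumour.

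H2-Q6, the neighbouring Qa-2 family gene, had a like pattern without passing the test. In IgG tumours 1 to 5 it measured 2.39, 6.08, 2.54, 5.01 and 2.78 CPM, and after propafenone 1.61, 3.64, 2.78, 9.02 and 2.77 CPM. After anti-PD-1 it measured 1.85, 3.32, 6.62, 1.73 and 9.28 CPM, and in the combination 13.6, 9.58, 12.9, 8.93 and 10.5 CPM. Combination tumours did not overlap IgG tumours, a separation that 4.72% of all genes had in that direction, while propafenone tumour 4 and anti-PD-1 tumour 5 reached above the lowest combination tumour in CPM. In TPM the lowest combination tumour (9.58) stood just above anti-PD-1 tumour 5 (9.43). Against IgG the log2 fold change was 1.56 ± 0.466 (edgeR adjusted p = 0.0563), against propafenone 1.49 ± 0.464 (0.0683) and against anti-PD-1 1.29 ± 0.462 (0.446). Fits by DESeq2, by limma on voom values and by limma on log2(TPM + 1) and log2(TPM + 0.1) called H2-Q6 against both IgG and propafenone, and edgeR on counts divided by 4 called it against IgG only. Without propafenone tumour 4 the value against propafenone was 2.04 (edgeR adjusted p = 0.0102). The combination held the narrowest range of both genes: highest to lowest was 1.52-fold for H2-Q6 and 1.58-fold for H2-Q7, against 5.61-fold and 6.59-fold after propafenone.

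Markers of several other cell types moved beside these values, most of them higher and those of red blood cells lower. The 5 leukocyte markers summed to 12.0 to 39.9 CPM in IgG tumours and 39.5 to 84.2 in the combination. All 5 stood higher against IgG, and edgeR called 3 of them, Ptprc, Coro1a and Cd53, beside 2.24% of all genes called higher. DESeq2 called 4 and limma voom 3. The 12 macrophage and monocyte markers summed to 40.0 to 192 CPM and 212 to 476 CPM. All 12 stood higher, and edgeR called 8, DESeq2 10 and limma voom 12. All 6 skeletal muscle markers stood higher (4.75 to 49.7 CPM summed in IgG, 30.5 to 381 in the combination). Of these edgeR called 4, DESeq2 6 and limma voom 1. All 6 fibroblast markers stood higher (108 to 345 and 327 to 699 CPM), and edgeR called 3, DESeq2 4 and limma voom 4. In propafenone tumours the leukocyte sum ran from 12.3 to 50.6 CPM and the macrophage and monocyte sum from 60.3 to 207 CPM. For the combination against propafenone all 12 macrophage and monocyte, all 6 fibroblast and all 6 muscle markers stood higher. In that order edgeR called 2, 4 and 3, DESeq2 7, 6 and 5, and limma voom 8, 6 and 1. The share of all genes edgeR called higher there was 1.67%. Of the 5 leukocyte markers edgeR called 0 there, with 5 at an unadjusted p under 0.05 (23.2% of all genes), and DESeq2 and limma voom called 4 each. None of the markers of these 4 lists was at 0 in all tumours of a group. The 9 T cell markers summed to 0.834 to 5.36 CPM and 2.48 to 12.7 CPM, with 0 of 9 called by edgeR, DESeq2 and limma voom and 1 at an unadjusted p under 0.05, below the 23.6% of all genes. Of 6 endothelial markers 5 stood higher against IgG, and edgeR called Tek (log2 fold change 1.72 ± 0.426, edgeR adjusted p = 0.0292). The list summed to 370 to 497 CPM in IgG tumours and 399 to 487 in the combination. Against propafenone (301 to 439 CPM) all 6 stood higher, edgeR called Tek and Pecam1, and DESeq2 called 5 of the 6. The 4 red blood cell markers, the globin genes, stood lower: they summed to 285 to 11456 CPM in IgG tumours, 754 to 6436 after propafenone and 170 to 445 in the combination. Their median log2 fold change was -3.56 against IgG and -3.00 against propafenone, edgeR and limma voom called 0 of 4, 4 of 4 had an unadjusted p under 0.05 in both comparisons, and DESeq2 called 4 and 3 lower. All 4 were without overlap against propafenone (4.88% of all genes in that direction) and overlapped IgG. The 4 keratinocyte markers summed to at most 0.355 CPM in IgG tumours, where 1 of them was at 0 in all 5, and to 0.0789 to 27.6 CPM in the combination (median log2 fold change 7.10, 0 called by edgeR and limma voom, 1 by DESeq2, 4 at an unadjusted p under 0.05). Keratinocyte sums reached 18.4 CPM after propafenone and 80.2 CPM after anti-PD-1, so this rise was not confined to the combination. The 4 adipocyte markers summed to 0.442 to 1.32 CPM in IgG tumours and 0.206 to 9.15 CPM in the combination (median 2.85, 0 called by edgeR and limma voom, 2 by DESeq2, 3 at an unadjusted p under 0.05). The 4 NK cell and 6 dendritic cell markers tested all stood higher against IgG (medians 1.44 and 1.26). edgeR and limma voom called 0 in both lists, and DESeq2 called 1 dendritic cell marker, Flt3, and 0 NK cell markers. In each list 2 had an unadjusted p under 0.05, beside 23.6% of all genes. Over the 20 tumours with group means removed, H2-Q7 had a Pearson r of 0.899 (Spearman 0.877) with the leukocyte sum. That was the highest of the 10 members, but all had a high r with it, from 0.713 for Nlrc5, with Tap2 at 0.877 and H2-Q6 at 0.851. With other sums the r of H2-Q7 was 0.817 for macrophages and monocytes, 0.704 for T cells and 0.544 for fibroblasts. It was 0.372 for melanocytes, 0.212 for red blood cells and 0.154 for skeletal muscle. The part of these cell types in the H2-Q7 result was not tested. In bulk tumours, fewer cells of a type and less RNA per cell cannot be told apart.

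**Figure D2:**
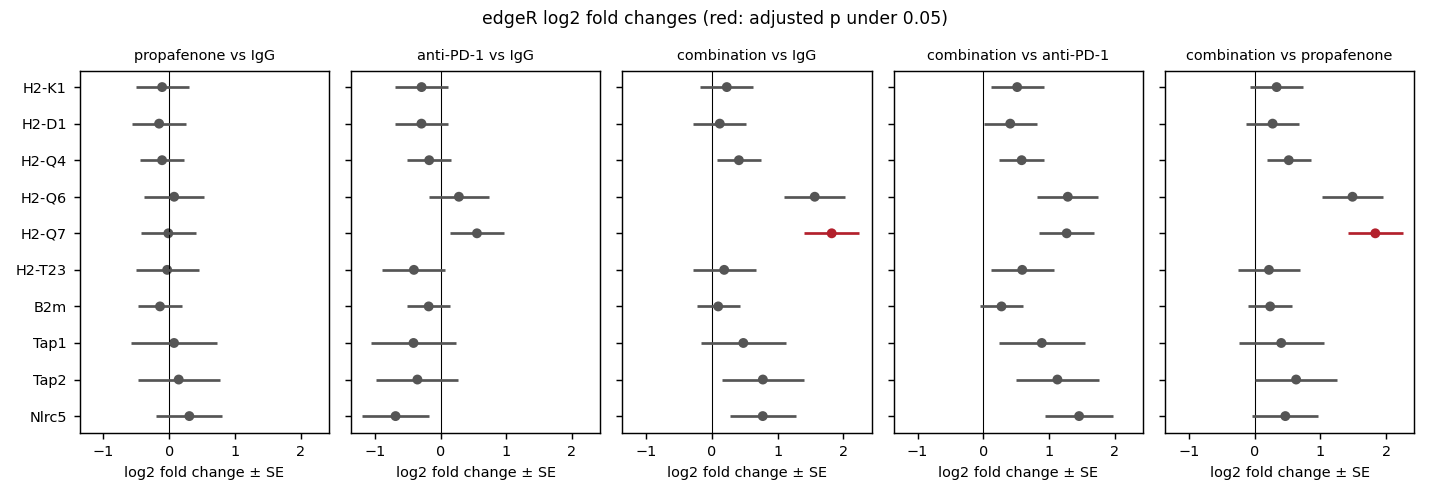
edgeR log2 fold changes with standard errors for the 10 genes in the 5 pairwise comparisons, red where the adjusted p is under 0.05. H2-Q7 is red in the combination against IgG and against propafenone, and every point is above 0 in the 3 comparisons of the combination.

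The classical heavy chains H2-K1 and H2-D1 did not pass the test in any comparison. H2-K1 measured 271, 554, 299, 368 and 193 TPM in IgG tumours 1 to 5, 187, 272, 372, 478 and 339 after propafenone, 126, 190, 456, 167 and 445 after anti-PD-1, and 663, 256, 628, 255 and 306 in the combination. The groups overlap, and the highest IgG tumour exceeded 3 of the 5 combination tumours. The log2 fold change of the combination against IgG was 0.23 (95% interval -0.56 to 1.01, edgeR adjusted p = 0.77), and against anti-PD-1 0.52 (-0.27 to 1.31, 0.68). For H2-D1 the values were 0.12 (-0.68 to 0.91, edgeR adjusted p = 0.89) and 0.41 (-0.39 to 1.21, 0.745). H2-Q4 stood at 0.41 against IgG and 0.58 against anti-PD-1, and H2-T23, whose product Qa-1 is read by the CD94 and NKG2A receptor of NK and T cells, at 0.19 and 0.59, neither passing the test. B2m, the light chain these heavy chains pair with, had the smallest log2 fold change of the 10 members in the combination against IgG, 0.10 (-0.55 to 0.74, edgeR adjusted p = 0.89). Its TPM was 989, 1788, 799, 1274 and 675 in IgG tumours and 1799.8, 1003, 1437, 897 and 1178 in combination tumours.

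Relative to H2-K1 in the same tumour, H2-D1 stood at 124.1% of its TPM in IgG tumours, 119.5% after propafenone, 122.1% after anti-PD-1 and 122.2% in the combination. H2-Q7 stood at 0.995%, 0.962%, 1.82% and 3.22% of H2-K1, and H2-Q6 at 1.13%, 1.24%, 1.53% and 3.41%. For H2-Q6 the 5 combination tumours (2.13% to 4.50%) lay above the highest other tumour (2.12%) by a small margin, which 0.0252% of all genes did in their ratio to H2-K1. That share also carries the spread of H2-K1 between tumours, so it does not measure how rare the H2-Q6 pattern is. In CPM 0.34% of all genes had the full separation, and H2-Q6 did not. For H2-Q7 the combination range of 2.21% to 4.19% overlapped that of anti-PD-1, which reached 2.72%. These differences of ratios were not tested. H2-K1 and H2-D1 together made up most of the heavy chain TPM of the 6 genes (40.2% and 49.7% in IgG tumours), and H2-Q7 0.398% in IgG tumours and 1.25% in the combination.

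**Figure D3:**
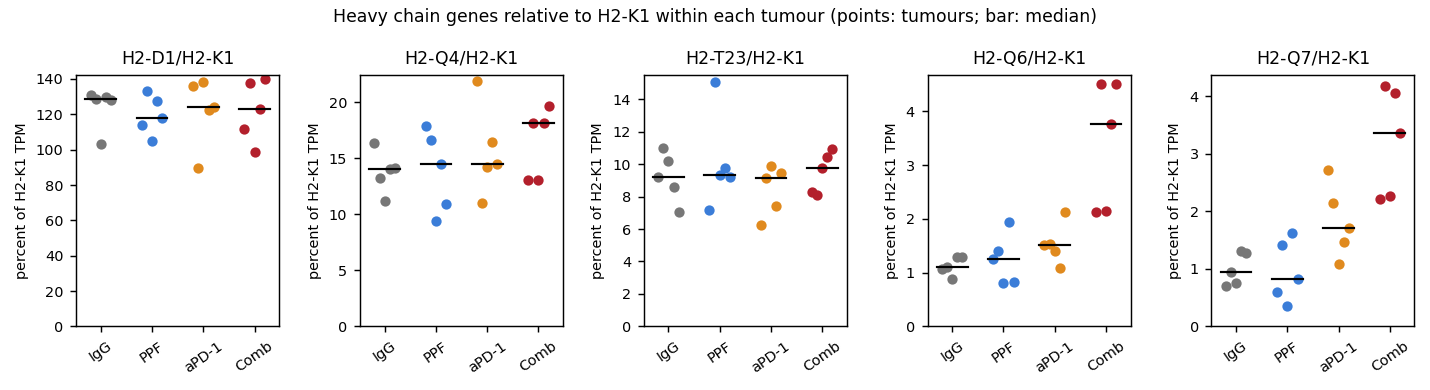
TPM of 5 heavy chain genes as a percent of the H2-K1 TPM of the same tumour, by group, with points for tumours and a bar at the median. H2-Q6 and H2-Q7 stand higher in the combination (medians 3.76% and 3.36%) than in IgG tumours (1.11% and 0.943%), and H2-D1 has medians from 118.2% to 128.5%.

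The transporter genes Tap1 and Tap2 and the regulator Nlrc5 varied widely between tumours of one group, and none passed the test. Tap1 measured 39.4, 122, 36.3, 71.0 and 22.1 CPM in IgG tumours, 21.2, 66.8, 50.6, 121 and 46.5 after propafenone, 13.9, 10.3, 102, 21.3 and 71.6 after anti-PD-1, and 142, 38.9, 122, 38.3 and 63.9 in the combination. Combination tumours 1 and 3 were high and 2 and 4 low, and the range of the other groups covers the low ones. The log2 fold change against IgG was 0.48 ± 0.65 for Tap1 and 0.77 ± 0.624 for Tap2 (edgeR adjusted p = 0.695 and 0.475). Nlrc5 measured 16.4, 29.4, 12.9, 20.3 and 5.71 CPM in IgG tumours, 9.51, 27.4, 13.9, 37.4 and 16.5 after propafenone, 5.99, 2.75, 14.8, 8.16 and 20.9 after anti-PD-1, and 45.0, 18.7, 36.6, 16.4 and 28.0 in the combination. Against anti-PD-1 the combination value for Nlrc5 was 1.46 ± 0.512 (edgeR adjusted p = 0.446, unadjusted 0.0107), the smallest unadjusted p of this gene, and against IgG 0.77 ± 0.504 (0.366). Relative to B2m in the same tumour, Nlrc5 stood at 0.459% in IgG tumours, 0.649% after propafenone, 0.333% after anti-PD-1 and 0.803% in the combination. The combination tumours (0.614% to 0.943%) lay above all IgG tumours (up to 0.540%) and all anti-PD-1 tumours (up to 0.494%), and overlapped those given propafenone (0.422% to 0.948%). Such a separation of the ratio to B2m was found for 2.73% of all genes against IgG and 0.372% against anti-PD-1. These shares also carry the spread of B2m between tumours, and the difference in Nlrc5 was not tested.

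All 10 members stood higher in the combination than in each other group, beside medians over all genes near 0, such as -0.01 against IgG. Of all 15875 genes 7647 stood higher against IgG, 7598 against anti-PD-1 and 7777 against propafenone. The members vary together over tumours and these comparisons share the combination tumours, so the counts are not independent. The median over the members was 0.444 against IgG, 0.741 against anti-PD-1 and 0.436 against propafenone. The direction was not the same in each fit: H2-D1, H2-T23 and B2m were below 0 against IgG in 1 or 2 of the fits without 1 tumour, H2-T23 also against propafenone in 1, and H2-T23 against IgG without the 5 libraries above 1000 CPM of Hbb-bs. After anti-PD-1 alone 8 of 10 members were lower than in IgG tumours (median -0.29), H2-Q6 and H2-Q7 being the others, and 0 of 10 were called. Leaving out IgG tumour 2 turned H2-Q4, B2m and Tap1 to the other sign. After propafenone alone 4 members were higher and 6 lower (median -0.02), and the signs depended on single tumours. For each single agent edgeR called 0 of 10 members, with 0 at an unadjusted p under 0.05 (4.75% of all genes for propafenone, 7.58% for anti-PD-1), and DESeq2 and limma voom called 0. Against anti-PD-1 the combination had 0 of 10 called by edgeR, DESeq2 and limma voom, and 3 of 10 (H2-Q6, H2-Q7 and Nlrc5) at an unadjusted p under 0.05, beside 9.78% of all genes.

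Within each group the same tumours were high or low across members. IgG tumour 2 was highest of its group for 10 of 10 members and IgG tumour 5 lowest for 8. Propafenone tumour 4 was highest for all 10 and propafenone tumour 1 lowest for all 10. After anti-PD-1, tumour 3 was highest for 7 members and tumour 5 for 3, and both lay above the other 3 tumours for each member except H2-Q7. In the combination tumour 1 was highest for 8 and tumour 4 lowest for 8. With group means removed, Tap1 and Tap2 had a Pearson r of 0.973 over the 20 tumours, H2-Q4 and B2m 0.971 and H2-K1 and H2-D1 0.96. H2-Q7 was least like the rest (median r 0.725, 0.605 with B2m), and most like H2-Q6 (0.915). These tumours share libraries and scaling across genes, so the values describe and carry no p.

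**Figure D4:**
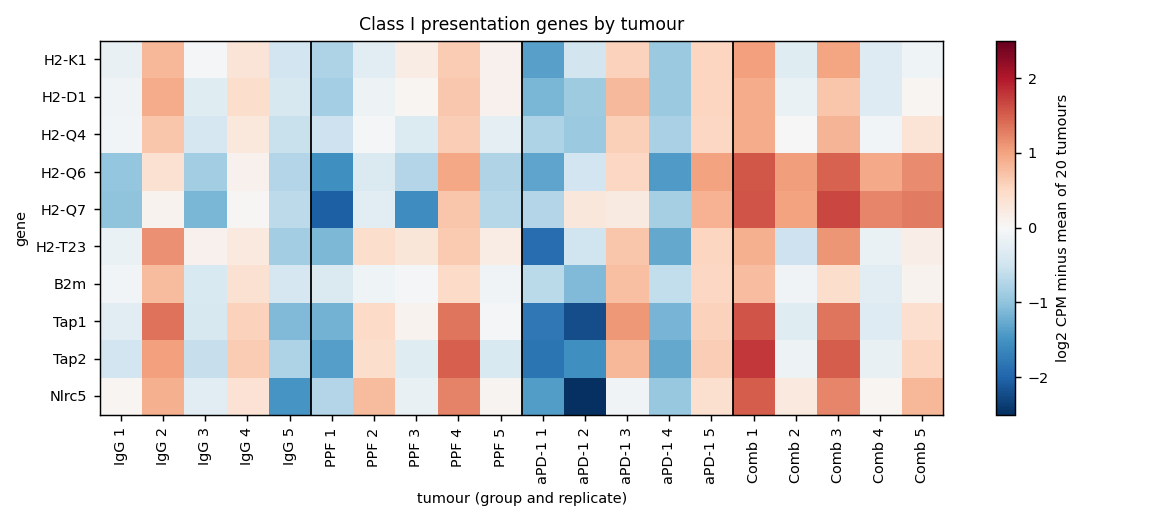
Log2 CPM of the 10 genes (rows) in the 20 tumours (columns, by group and replicate), minus the mean of the 20 tumours, red for higher and blue for lower. Columns such as IgG 2, PPF 4, Comb 1 and Comb 3 are red in nearly all rows, and H2-Q6 and H2-Q7 are red in all 5 combination columns.

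The genes most like the members over tumours, by Pearson r with their mean standardized residual, were the immunoproteasome subunit genes Psmb8 (0.985), Psmb9 (0.972) and Psmb10 (0.963), the proteasome activator genes Psme1 (0.973), Psme2 (0.97) and Psme2b (0.967), the loading factor gene Tapbp (0.975), the heavy chain gene H2-T22 (0.963), Prph (0.962), which encodes the filament protein peripherin, and Nmi (0.961). Without the 2 tumours farthest from the median the r stayed between 0.948 and 0.988. Psmb9, for instance, measured 22.5 ± 17.1 CPM in IgG tumours and 30.3 ± 20.96 in the combination (mean ± SD, n = 5). edgeR called 0 of these 10 genes in each comparison.

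The other genes of the pathway gave few calls. Of 9 peptide loading and trimming genes 9 stood higher in the combination against IgG, with 0 called by edgeR and limma voom and 2 at an unadjusted p under 0.05, a share like the 23.6% of all genes. The smallest p belonged to Hspa5, the endoplasmic reticulum chaperone BiP (0.33 ± 0.111, edgeR adjusted p = 0.0783), which DESeq2 called. Of 5 immunoproteasome and activator genes 5 stood higher, and edgeR, DESeq2 and limma voom called 0, with 0 at an unadjusted p under 0.05. Of the 4 constitutive counterparts 4 stood lower and edgeR called 1, the catalytic subunit gene Psmb7 (log2 fold change -0.25 ± 0.063, edgeR adjusted p = 0.031). Psmb7 measured 211 ± 10.7 CPM in the combination and 251 ± 15.2 in IgG tumours, and the groups did not overlap, as for 7.21% of all genes in that direction. Among 16 regulators 12 stood higher and 4 lower, and 7 had an unadjusted p under 0.05, beside 23.6% of all genes. edgeR called 1 of the 16, Rela, which encodes the NF-kappaB subunit p65, as lower (-0.32 ± 0.074, edgeR adjusted p = 0.0252). Irf9, a member of the interferon regulatory factor family, stood at 0.64 ± 0.19 (edgeR adjusted p = 0.0557). DESeq2 called Irf9 and Stat2 higher against IgG and Irf2 higher against propafenone, and limma voom called none of these.

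Of 5 other class I heavy chain genes tested of 11 listed, 4 stood higher against IgG, with 0 called by edgeR, DESeq2 and limma voom and 1 at an unadjusted p under 0.05. H2-M3, which presents formylated peptides, stood at 1.57 ± 0.47 against propafenone (edgeR adjusted p = 0.0592), which DESeq2 called and limma voom did not. Among 8 class I-like genes outside or at the edge of the MHC, Ulbp1, a ligand of the activating receptor NKG2D, rose in the combination against IgG (0.95 ± 0.192, edgeR adjusted p = 0.0183). It measured 11.1 ± 2.45 CPM in the combination, 5.72 ± 0.230 in IgG tumours, 8.57 ± 1.19 after propafenone and 8.42 ± 2.66 after anti-PD-1 (SD, n = 5). Its r with the members was -0.494. Cd1d1, which presents lipids to NKT cells, stood at 1.10 ± 0.333 (edgeR adjusted p = 0.0577), and DESeq2 and limma voom called it.

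Interferon gamma targets stood higher in the combination without a call by edgeR. Of 15 tested of 16 listed, 15 stood higher against IgG (median log2 fold change 1.2, smallest edgeR adjusted p = 0.108). An unadjusted p under 0.05 was found for 5, beside 23.6% of all genes, and limma voom called 0 and DESeq2 1, Gbp9. After propafenone alone 15 stood higher (median 0.486), and after anti-PD-1 14 of 15 stood lower (median -0.297). For each single agent 0 of 15 had an unadjusted p under 0.05, beside 4.75% of all genes for propafenone and 7.58% for anti-PD-1. The smallest edgeR adjusted p was 0.92 for propafenone and 0.9 for anti-PD-1. These comparisons share the IgG tumours. In the combination against anti-PD-1 15 of 15 stood higher (median 1.53, smallest edgeR adjusted p = 0.446), with 12 at an unadjusted p under 0.05 beside 9.78% of all genes and 0 called by edgeR, DESeq2 and limma voom. Ifng itself was near 0, from 0 to 0.502 CPM, and highest in combination tumour 1 and IgG tumour 2. Among 7 MHC class II genes 6 stood higher against IgG, with 0 called by edgeR, DESeq2 and limma voom and 1 at an unadjusted p under 0.05, and the class II regulator Ciita stood at 2.22 ± 0.704 against anti-PD-1 (edgeR adjusted p = 0.446). These lists were chosen with earlier results of the data known, and a list's median and count are descriptions.

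**Figure D5:**
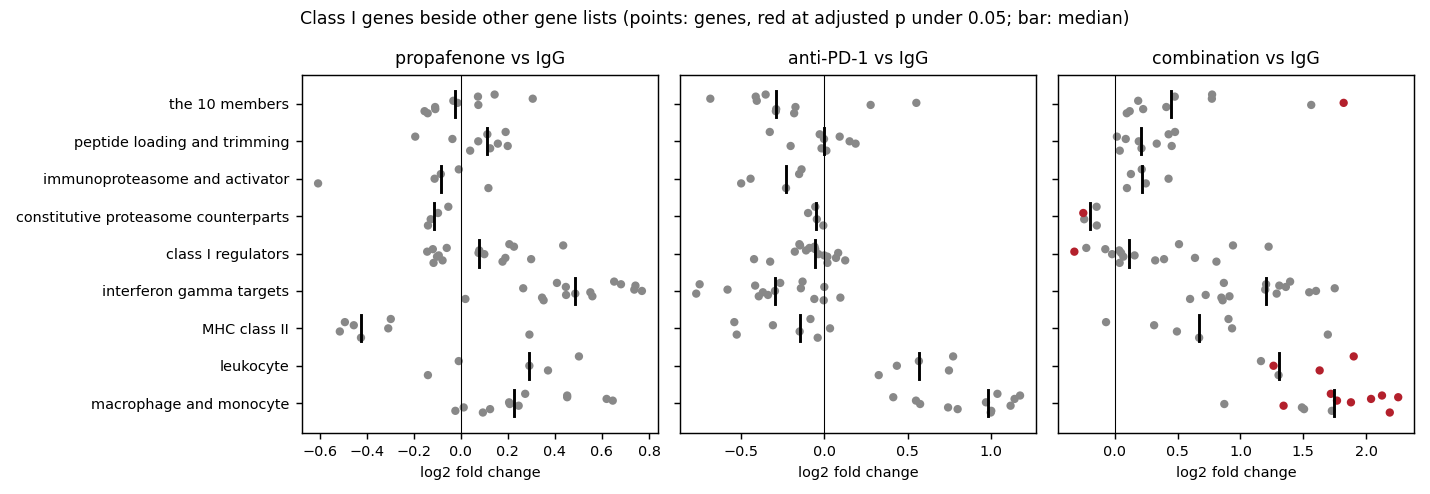
Log2 fold changes against IgG of each gene (points, red where the edgeR adjusted p is under 0.05) in 9 lists, with a bar at each list's median, for propafenone, anti-PD-1 and the combination; each panel has its own horizontal scale. In the combination 1 of the 10 members, Psmb7, Rela and markers of leukocytes and macrophages are red.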

How the data were processed

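RNA from 20 tumours was sequenced after preparation with a SMARTER mRNA kit, per the labels' protocols. Tools named in the submitters' processing notes are HISAT2 2.2.1, FastQC and SAMtools 1.9, with GRCm38 and mm10 as builds. The counting tool, annotation, strand setting and read length are not given in the sources used here. Expected counts per gene, estimated and deposited by the authors, are stored as whole numbers and not scaled. Low values favour multiples of 4, so counts divided by 4 were tried. The deposited TPM table, made by the authors, sums to the same total in each library.

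Testing used the quasi-likelihood test of edgeR 4.0.16 in R 4.3.3 (robust fit, TMM scaling, filterByExpr, 1 mean per group, 16 residual degrees of freedom), keeping 15875 genes with 99.98% of counts. CPM uses TMM-scaled totals. Standard errors are the log2 fold change divided by the root of F, and 95% intervals are 1.96 standard errors. Alternatives were DESeq2 1.42.0, limma 3.58.1 on voom values and on log2(TPM + 1) or log2(TPM + 0.1), DESeq2 size factors, library totals, no filter, a replicate block and left-out libraries. In simulated data for the combination against IgG, genes varied independently and the changed genes were drawn at random. There the fit called 52% of genes changed 1.5-fold and 80% of those changed 2-fold. Of its calls there 2.94% were false. Within groups log2 CPM correlated at 0.958 to 0.986 and no library copied another. Identical windows were counted on GENCODE M21 transcripts (GRCm38) that were protein-coding or of genes with H2- symbols. Of the 32285 identifiers 32158 were found in GENCODE M21. Promoters come from RefSeq (GRCm38.p6).

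Members, lists and alternatives were chosen with earlier results of these data known. Besides the members, the text names list genes past the threshold, otherwise up to 4 per list with the smallest p, and the 10 genes with a mean of at least 1 CPM most like the members. Marker genes are named beside the results they touch. Gbp9 was named by that rule.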

Additional observations from a re-analysis of the deposited data

Results flagged for a closer look

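H2-Q6 in propafenone tumour 4 measured 9.02 CPM, far above the other 4 tumours of that group (1.61 to 3.64 CPM). Its gap to the nearest of them, set against the whole range of the group, exceeded Dixon's critical value of 0.71. Among 40 groups of 5 tumours examined (10 genes in 4 groups) this was the only one, and chance alone marks about 1 in 20. The same tumour was highest of its group for all 10 members.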

How the results depend on the processing

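Over the 10 alternatives that kept all tumours or left out 5, H2-Q7 stayed called against IgG (log2 fold change 1.65 to 1.97, adjusted p 0.000471 to 0.0374) and against propafenone (1.76 to 2.47, 0.000516 to 0.0417). Tumours of the same replicate number were not alike on average (30 same-number pairs, mean correlation -0.00694, range -0.41 to 0.369). Of 20 tumours 7 correlated best with a tumour of their own number, and this check cannot exclude a pairing. With a replicate block edgeR called 829 and 675 genes, and H2-Q7 stood at 1.97 (adjusted p = 0.02) and 2.08 (0.0246). The members called against IgG went from 1 to 2, H2-Q6 being added, with DESeq2, limma voom, counts divided by 4, and limma on log2(TPM + 1) and log2(TPM + 0.1). Against propafenone they went from 1 to 2 with DESeq2, limma voom, both TPM fits and without the 5 libraries above 1000 CPM of Hbb-bs. Over fits without 1 tumour the members called ranged from 0 to 2 in both comparisons, genes called from 5 to 1067 against IgG and from 4 to 1882 against propafenone, and from 0 to 1 for anti-PD-1 against IgG.

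Genes called for propafenone against IgG were 3 with DESeq2. For anti-PD-1 against IgG they were 21 with DESeq2 and 13 without the Hbb-bs libraries. For the combination against IgG, 774 became 411 with a fold of at least 1.5, 480 with library totals, 463 with no filter and 1423 with DESeq2. Against anti-PD-1 they were 7 with DESeq2 and 2 with log2(TPM + 1). Against propafenone, 616 became 350, 347, 335 and 1466 in that same order and 1142 without the Hbb-bs libraries. DESeq2 called 2 for the interaction. The causes were not tested.

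Signs turned for propafenone against IgG in H2-Q6 (-0.072 with limma voom, -0.45 without the Hbb-bs libraries), H2-Q7 (0.014 with library totals), H2-T23 (0.094 and 0.098 with the TPM fits) and, without the Hbb-bs libraries, Tap1 (-0.51), Tap2 (-0.41) and Nlrc5 (-0.20). H2-T23 in the combination against IgG was -0.039 without the Hbb-bs libraries. Ranges over fits without 1 tumour that crossed 0 were, for propafenone against IgG, H2-K1 -0.30 to 0.12, H2-D1 -0.36 to 0.10, H2-Q4 -0.34 to 0.11, H2-Q6 -0.48 to 0.31, H2-Q7 -0.54 to 0.21, H2-T23 -0.21 to 0.32, B2m -0.29 to 0.083, Tap1 -0.33 to 0.53, Tap2 -0.41 to 0.48 and Nlrc5 -0.0076 to 0.60. For anti-PD-1 against IgG they were H2-Q4 -0.41 to 0.046, H2-Q6 -0.16 to 0.52, B2m -0.46 to 0.044 and Tap1 -0.98 to 0.053. For the combination against IgG they were H2-D1 -0.080 to 0.38, H2-T23 -0.045 to 0.54 and B2m -0.071 to 0.32, and against propafenone H2-T23 -0.014 to 0.39. On log2(TPM + 0.1) the median of all genes in the combination against IgG was 0.102, and H2-Q7 stood at 1.93. With 5 tumours a group, changes the size of the B2m and H2-K1 values are within the spread.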
